A study of Mus musculus with 8 samples.

Results

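Stress granule proteins are the subject here, namely 10 genes for RNA-binding proteins and their partners: G3bp1, G3bp2, Caprin1, Ubap2l, Atxn2, Tia1, Tial1, Fmr1, Fxr1 and Fxr2. They were taken by gene symbol. They account for 11 rows of the expression table, because Tia1 has 2 transcript rows, and all 11 were among the 10588 rows tested out of 28662 in the table. RNA was sequenced from the right cortex of C57BL/6 mice. The 4 bigenic mice carried Camk2a-tTa, in which a Camk2α promoter drives the tetracycline transactivator mainly in forebrain neurons, together with deltaNLS-hTDP-43, a human TDP-43 with a defective nuclear localization signal under a tetracycline-responsive promoter. The 4 nontransgenic control mice came from heterozygous parents and had the same diet. In both groups doxycycline, which represses the transgene, was withdrawn at 28 days of age and the cortex was taken 10 days later. Mice with only Camk2a-tTa were not analysed here, so effects of the transactivator and of TDP-43 cannot be told apart. Each group held 3 males per the methods, but the columns do not say which mouse was which.

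Stress granules are cytoplasmic assemblies of stalled messenger RNAs and RNA-binding proteins that form when translation initiation is blocked, most often through phosphorylation of eIF2α, and dissolve when translation resumes. G3BP proteins, with Caprin-1 and UBAP2L, act as the scaffold, TIA proteins join through prion-like segments, and ataxin-2 and the fragile X family enter with the messenger RNAs they bind. TDP-43 enters stress granules in stressed cells, and it recognizes runs of UG in RNA.

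Because UG runs, written TG in DNA, are the sequence that TDP-43 recognizes, a selection of runs in members that rose, fell or did not pass the test is shown from the NCBIM37 (mm9) genome, read along the transcript. Capitals mark the run with 3 flanking bases in lower case. Where a run had more than 24 bases, only its first 26 bases are printed. The first lies in the 3′ UTR of G3bp1 at chr11:55314522-55314573 (+) and has 26 units in 52 bases, and the next in the 3′ UTR of Ubap2l at chr3:89810453-89810462 (-) with 5 units. The run in the coding sequence of Caprin1 at chr2:103619330-103619337 (-) has 4 units. The intronic runs lie in Tia1 at chr6:86361549-86361602 (+) with 27 units, in G3bp2 at chr5:92505190-92505231 (-) with 21 units, and in Fxr2 at chr11:69454489-69454510 (+) with 11 units. Intronic runs of 16 units in Atxn2 and 13 units in G3bp1 are not printed.
G3bp1 3′ UTR: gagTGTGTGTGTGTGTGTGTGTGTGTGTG
Ubap2l 3′ UTR: tttTGTGTGTGTGtat
Caprin1 coding: gccTGTGTGTGgaa
Tia1 intron: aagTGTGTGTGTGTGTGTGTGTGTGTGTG
G3bp2 intron: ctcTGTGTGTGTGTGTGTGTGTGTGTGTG
Fxr2 intron: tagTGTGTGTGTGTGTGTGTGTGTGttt

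A run of at least 6 TG units in a row (TGTGTGTGTGTG, transcript strand only) lay in annotated exons of 1 of the 10 members, G3bp1, against 11.2% of 10161 annotated genes tested. In introns such runs lay in 8 of 10 members (80.0%), all but Tial1 and Fmr1, against 71.5% of genes. With 4 units, exonic runs lay in 6 of 10 members (60.0%) against 34.8%, and intronic runs in all 10 against 84.1%. The exonic run of Atxn2 lay in a transcript annotated as a retained intron, while Tia1 and Fmr1 each had 1 such run and 1 in the 3′ UTR. All 5 exonic runs of G3bp1 lay in its 3′ UTR. The median gene span was 34931 bases in the members and 28232 bases in all genes, and longer genes hold more runs. These matches describe the sequence and do not show binding.

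Expression was given as normalized counts, which are reads scaled mouse by mouse by a factor that no source here states. Their totals were 20.13 M to 21.98 M in bigenic mice and 20.45 M to 21.17 M in nontransgenic mice. The values corresponded to between 10.63 M and 31.93 M reads on genes per bigenic mouse and between 20.19 M and 28.97 M per nontransgenic mouse, and 3 reads were worth between 1.94 and 6.2 normalized counts. The transcript of the transgene had 29375 to 41550 normalized counts in bigenic mice and 5 to 80 in controls, and endogenous Tardbp was lower in bigenic mice, at 5180 ± 249 against 6538 ± 420 (SD, n = 4), log2(fold change) = -0.33 ± 0.07 (SE). The bigenic mouse in column bg277 had the fewest reads and stood apart from the others on the first principal component, at -45.99 against -15.1 to -12.8 for the other bigenic mice and 14.01 to 26.55 for controls. Among controls, the mouse in column nt278 lay nearest to the bigenic mice. Member results are therefore also given without bg277. All log2(fold changes) below are on the log2(normalized count + 1) scale with standard errors, and genes with an adjusted p-value below 0.05 in limma are termed called.

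Of the 10 members, 3 rose and 3 fell in bigenic cortex. Fxr2, Fxr1 and Atxn2 were higher, Tia1, Tial1 and Fmr1 were lower, and G3bp1, G3bp2, Caprin1 and Ubap2l were not called. The share called was 60.0%, against 35.9% of all genes tested (20.5% higher and 15.4% lower). In 5 of the 10 members the 4 bigenic and 4 nontransgenic values did not overlap, against 39.0% of all genes. They were higher in 2 (Fxr2 and Ubap2l, against 22.3% of all genes) and lower in 3 (Tia1, Tial1 and Fmr1, against 16.7%). The median log2(fold change) was 0.08 over the members and 0.03 over all genes. Leaving out a control lowered the count of members called to 3 without nt242, 2 without nt250 and 3 without nt255, where 26%, 25.2% and 25.1% of all genes were called. Without bg277, 7 members were called, the addition being Ubap2l, and 45.5% of all genes.

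**Figure D1:**
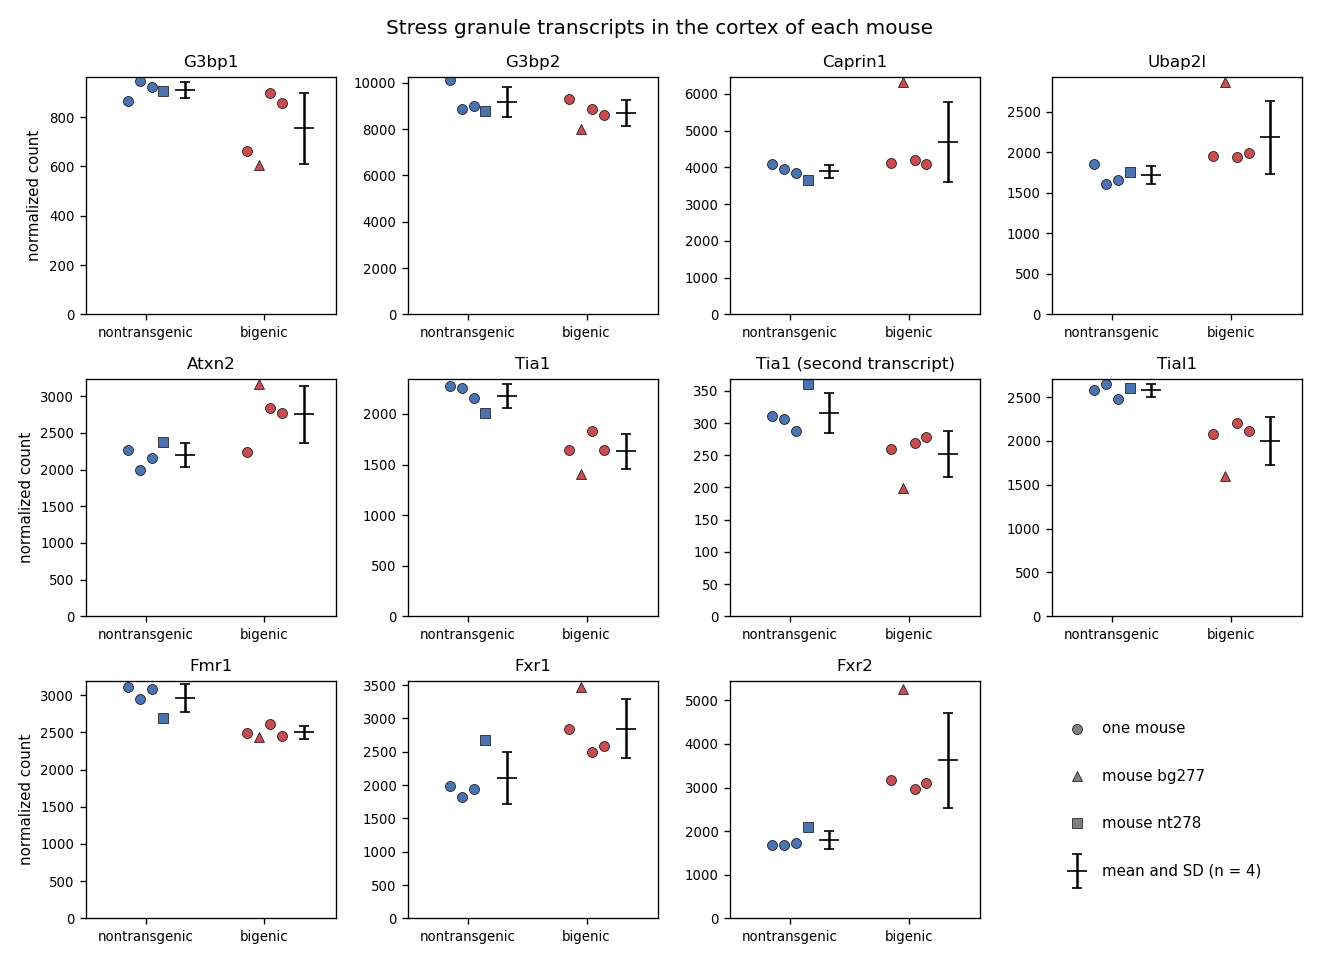
Normalized counts (y axis, from 0) of the 11 stress granule rows in each nontransgenic (blue) and bigenic (red) mouse, with the group mean and SD; the triangle is mouse bg277 and the square mouse nt278. Fxr2 lay at 2975 to 5255 in bigenic mice, above every control (1673 to 2093), while Tia1 lay at 1406 to 1829, below every control (2011 to 2277).

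The fragile X family showed the most divergent behaviour of related members. Its proteins bind messenger RNAs, associate with polyribosomes and regulate local translation at synapses. Fxr2 encodes the autosomal fragile X related protein 2, and the gene lies at chr11:69446492-69466799 (+). Its normalized counts were 3172, 5255, 2975 and 3102 in bigenic mice bg254, bg277, bg283 and bg286, and 1673, 1683, 1723 and 2093 in controls nt242, nt250, nt255 and nt278. All bigenic values were above all control values, with the highest bigenic value in bg277 and the highest control value in nt278. The means were 3626 ± 1089 and 1793 ± 201 (SD, n = 4 each), a log2(fold change) of 0.98 ± 0.17 (adjusted p = 0.00219) or a fold of 1.97. Without bg277 the bigenic mean was 3083 and the log2(fold change) 0.79, and the call was kept whichever mouse was left out (adjusted p from 4.09e-05 to 0.00997).

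Fxr1, the other autosomal paralogue, at chr3:33919001-33968264 (+), also rose. It had 2838, 3470, 2489 and 2584 normalized counts in the bigenic mice, in the same order as for Fxr2, and 1992, 1823, 1933 and 2673 in the controls. Control nt278 exceeded 2 bigenic mice, so the groups overlapped, while the other 3 controls were below every bigenic mouse. The log2(fold change) was 0.44 ± 0.14 (adjusted p = 0.0344). The call was lost without bg254 (adjusted p = 0.067), nt242 (0.0884), nt250 (0.103) or nt255 (0.0941), and the log2(fold change) without each mouse in turn ranged from 0.34 to 0.56. Of the annotated exon bases of Fxr1, 7.38% overlap exons of Dnajc19 on the opposite strand.

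Fmr1, the X-linked founder of the family whose loss causes fragile X syndrome, moved the other way. The gene lies at chrX:65931716-65971138 (+). It had 2490, 2438, 2618 and 2452 normalized counts in bigenic mice and 3114, 2954, 3080 and 2693 in controls, again in the order above. Every bigenic mouse was below every control, and the spread among bigenic mice was the smallest of any member, with a coefficient of variation of 3.28%. Its log2(fold change) was -0.24 ± 0.07 (adjusted p = 0.0266). The call was lost without bg286 (adjusted p = 0.0664), nt242 (0.0811), nt250 (0.0692) or nt255 (0.0853). It was also lost when a trend on GC content and length was removed from each mouse, where the log2(fold change) was -0.15 (adjusted p = 0.189).

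Ratios of paralogues within each mouse were compared next, since a ratio does not depend on how a mouse was scaled. Fmr1 was at 1.86, 1.76, 1.79 and 1.29 times the normalized count of Fxr2 in controls nt242, nt250, nt255 and nt278, and at 0.785, 0.464, 0.88 and 0.79 times in bigenic mice bg254, bg277, bg283 and bg286. Fmr1 thus had more normalized counts than Fxr2 in every control and fewer in every bigenic mouse. The difference in the log2 ratio was -1.22, with p = 0.0286 in an exact permutation test (two-sided, 70 arrangements, which allow no smaller value) and 0.0714 after adjustment over 5 ratios. The Fxr1 to Fxr2 ratio was 1.08 to 1.28 in controls and 0.66 to 0.895 in bigenic mice, a log2 difference of -0.54 with the same exact p = 0.0286 and adjusted 0.0714, so that Fxr2 had more normalized counts than Fxr1 in every bigenic mouse and fewer in every control, although the adjusted value missed 0.05. With the GC and length trend removed this difference was smaller, -0.35 (exact permutation p = 0.0286). The Fmr1 to Fxr1 ratio was 1.56, 1.62, 1.59 and 1.01 in controls and 0.703 to 1.05 in bigenic mice, a log2 difference of -0.68 (exact permutation p = 0.0571, adjusted 0.0952), and control nt278 fell within the bigenic range. Normalized counts are not corrected for transcript length, so a ratio above or below 1 does not give the order of transcript levels. Per kilobase of the longest coding transcript, Fxr1 (1071 to 1494) and Fxr2 (1008 to 1781) overlapped in bigenic mice. In controls, Fmr1 (611 to 706) and Fxr2 (567 to 709) overlapped per kilobase.

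**Figure D2:**
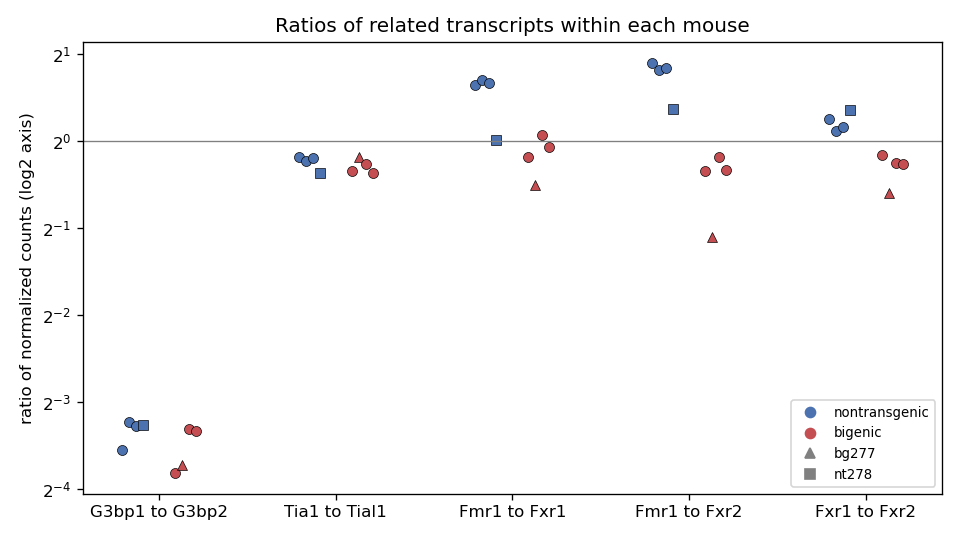
Ratio of the normalized counts of related members within each mouse (y axis, log2 scale) for nontransgenic (blue) and bigenic (red) mice; the triangle is bg277, the square nt278 and the line marks equal counts. The Fmr1 to Fxr2 ratio was 1.29 to 1.86 in controls and 0.464 to 0.88 in bigenic mice, whereas the Tia1 to Tial1 ratio was 0.772 to 0.881 in controls and 0.776 to 0.877 in bigenic mice.

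Tia1 and Tial1 encode paired RNA-binding proteins with prion-like tails that bind U-rich RNA, silence translation and regulate splicing, and both fell. Tia1 lies at chr6:86354213-86383397 (+). Its main row had 1641, 1406, 1829 and 1643 normalized counts in bigenic mice and 2277, 2260, 2157 and 2011 in controls, in the mouse order used above. All bigenic mice were below all controls. Its log2(fold change) was -0.42 ± 0.09 (adjusted p = 0.00626), or 0.75 times the control level, and it stayed between -0.48 and -0.35 and called whichever mouse was left out. The other Tia1 row had 259, 199, 269 and 279 normalized counts in bigenic mice and 311, 306, 287 and 360 in controls. Its groups did not overlap either, but its log2(fold change) of -0.34 ± 0.13 was not called (adjusted p = 0.0695). With the GC and length trend removed it was -0.30 and called (0.0441). The 2 rows belong to the same gene and may divide its reads.

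Tial1, which encodes TIAR, lies at chr7:135583291-135605231 (-). Its normalized counts were 2082, 1603, 2206 and 2117 in bigenic mice and 2586, 2645, 2473 and 2606 in controls, with no overlap and with bg277 lowest. The log2(fold change) was -0.37 ± 0.10 (adjusted p = 0.018). Without bg277 it was -0.27 and remained called, and the call was lost only without nt250 (adjusted p = 0.0542). The Tia1 to Tial1 ratio was 0.776 to 0.877 in bigenic mice and 0.772 to 0.881 in controls, a log2 difference of -0.05 (exact two-sided permutation p = 0.457), and leaving out each mouse in turn gave -0.09 to -0.02.

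The 4 scaffold members were not called. G3bp1 encodes the RNA-binding switch that nucleates granules, and the gene lies at chr11:55283187-55318340 (+). It had 662, 604, 897 and 857 normalized counts in bigenic mice and 865, 945, 922 and 908 in controls. Mice bg254, bg277 and bg286 were below every control, the last by little, and bg283 lay within the control range. This gave a log2(fold change) of -0.29 ± 0.13 (adjusted p = 0.102). Without bg283 it was -0.38 and was called (adjusted p = 0.0414), and without bg277 it was -0.19 (0.148).

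G3bp2, its paralogue, at chr5:92481172-92512761 (-), had 9315, 7993, 8889 and 8612 normalized counts in bigenic mice and 10134, 8848, 8977 and 8762 in controls. The groups overlapped, and the log2(fold change) of -0.08 ± 0.08 (adjusted p = 0.464) lay within the spread of the mice. A share of 43.8% of its annotated exon bases overlaps Gm9793 on the opposite strand, and no source here says that strand was used in counting, so reads of the pair cannot be told apart. The G3bp1 to G3bp2 ratio was 0.0711 to 0.101 in bigenic mice and 0.0854 to 0.107 in controls, a log2 difference of -0.21 (exact permutation p = 0.171).

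Caprin1 encodes the G3BP partner that promotes granule assembly and lies at chr2:103603098-103637806 (-). It had 4116, 6316, 4205 and 4087 normalized counts in bigenic mice and 4101, 3942, 3838 and 3665 in controls. Mouse bg277 was at 1.53 times the mean of the other bigenic mice, which were close to the controls. Its log2(fold change) was 0.24 ± 0.14 (adjusted p = 0.184) with bg277 and 0.09 (0.222) without it.

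Ubap2l, whose product acts with G3BP in assembly, lies at chr3:89803511-89856397 (-). It had 1951, 2862, 1937 and 1993 normalized counts in bigenic mice and 1855, 1602, 1652 and 1758 in controls. All bigenic mice were above all controls, with bg277 far above the rest. The log2(fold change) was 0.33 ± 0.13 (adjusted p = 0.068), and without bg277 it was smaller, 0.19, and called (0.0338). It was also called after rescaling every mouse to the same total (adjusted p = 0.0409) and with limma's array weights (0.00339). In these settings 35.6% and 61.0% of all genes were called. Ubap2l stayed not called in 8 of 10 alternative settings that kept all mice.

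Atxn2 encodes ataxin-2, which binds poly(A)-binding protein and modifies TDP-43 toxicity in disease models, and lies at chr5:122161346-122266502 (+). It had 2234, 3172, 2843 and 2770 normalized counts in bigenic mice and 2264, 1996, 2159 and 2370 in controls. Mouse bg254 lay within the control range and the other 3 bigenic mice above it. The log2(fold change) of 0.32 ± 0.11 was just called (adjusted p = 0.0463). The call was lost without bg283, without bg286 and without any of the 4 controls (adjusted p from 0.0531 to 0.131), with no filter on low values (0.062), after quantile normalization (0.0616) and with the GC and length trend removed (0.0527). The direction was the same in each of these.

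**Figure D3:**
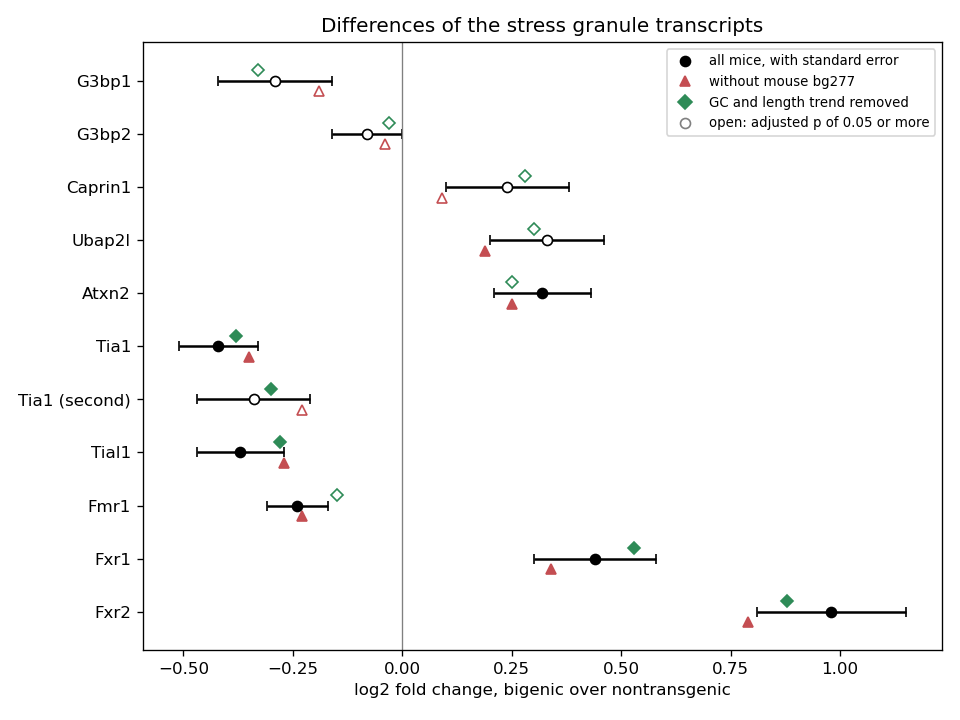
Log2(fold change), bigenic over nontransgenic (x axis), for each stress granule row: circles show all mice with the standard error, triangles the value without bg277 and diamonds the value with a GC and length trend removed, filled where the adjusted p is below 0.05. Fxr2 was the highest at 0.98 (0.79 without bg277) and Tia1 the lowest at -0.42 (-0.35 without bg277).

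Levels were compared between members per kilobase of the longest annotated coding transcript, which may differ from the gene models the authors counted on. In controls, G3bp2 was the highest at 2120 ± 148 normalized counts per kilobase (SD, n = 4) and G3bp1 the lowest at 136 ± 5.02. Between them came Fxr1 at 906 ± 166, Fmr1 at 671 ± 43.3, Caprin1 at 630 ± 29.7, Fxr2 at 608 ± 68.2, Tial1 at 579 ± 16.6, Atxn2 at 491 ± 35.7, Tia1 at 486 ± 27.3 and Ubap2l at 421 ± 27.7. The values of Fmr1, Caprin1 and Fxr2 overlapped, as did those of Fxr2 and Tial1, of Tial1 and Caprin1 at their edge, and of Atxn2, Tia1 and Ubap2l. In bigenic mice G3bp2 remained the highest at 2009 ± 128, but Fxr2 came next at 1229 ± 369, overlapping with Fxr1 at 1225 ± 190. Fmr1, at 567 ± 18.6 per kilobase, was below every bigenic value of Caprin1 (663 to 1024), and G3bp1 was the lowest again at 113 ± 21.5.

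The called members that rose and those that fell differed in base composition. The exons of Fmr1, Tia1 and Tial1 had 36.8%, 39.4% and 39.5% GC, and those of Fxr1, Atxn2 and Fxr2 had 43.3%, 51.0% and 55.0%. Members not called did not separate in this way. Caprin1 (log2(fold change) 0.24) had 40.8% GC and Ubap2l (0.33) 49.3%, while G3bp2 (-0.08) had 44.2% and G3bp1 (-0.29) 49.0%. The order of the called members was also seen among all genes, where those called lower had a median of 47.7% GC and those called higher 51.6%. Over 10 bins of GC content, the median log2(fold change) climbed from -0.07 at a median of 40% GC to 0.17 at 59.5%. With the trend removed, Fxr2 was at 0.88, Fxr1 at 0.53, Tia1 at -0.38 and Tial1 at -0.28, all called, while Fmr1 at -0.15 (adjusted p = 0.189) and Atxn2 at 0.25 (0.0527) were not. Apart from that removal, the part of GC content in the member differences was not tested.

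**Figure D4:**
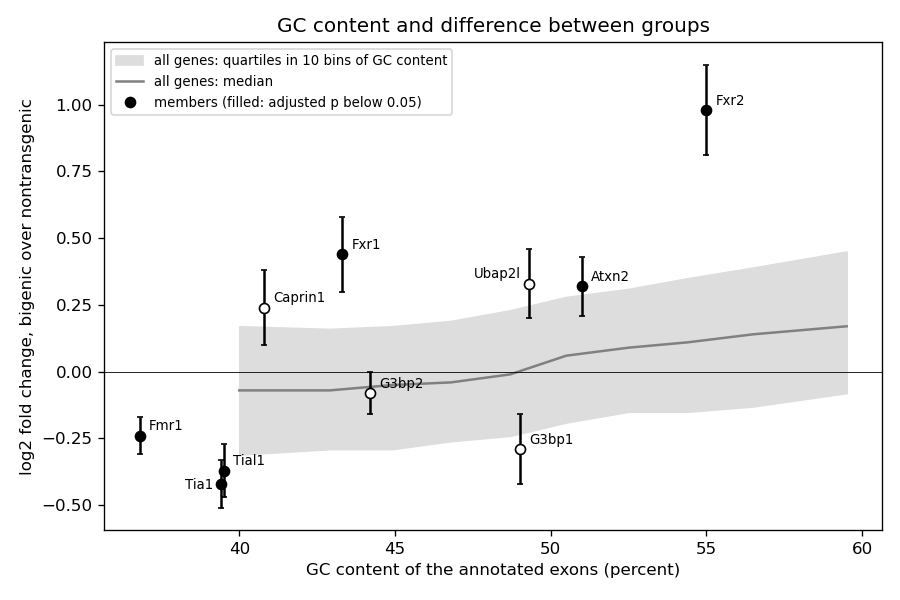
GC content of annotated exons (x axis, percent) against log2(fold change), bigenic over nontransgenic (y axis), for the 10 members with standard errors (filled where called), over the median and quartiles of all genes in 10 bins. The median of all genes climbed from -0.07 to 0.17, and 8 of the 10 members lay outside the quartiles of their bins: Fxr2, Fxr1, Caprin1, Ubap2l and Atxn2 above, and Tia1, Tial1 and G3bp1 below. Quartiles leave as many genes of a bin outside as inside, and Caprin1, Ubap2l and G3bp1 were not called.

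Other genes of the pathway were counted from lists that share no gene with the members. Of 43 tested of 45 other stress granule RNA-binding proteins, 10 rose and 4 fell (32.6%, against 35.9% of all genes), with a median log2(fold change) of -0.01. Among those that rose, Pabpc4 had 208 to 304 normalized counts in bigenic mice and 120 to 165 in controls. It passed the filter only through the bigenic mice, so its call carries no weight. With the filter in every mouse, 9 rose and 4 fell of 41 tested, where 37.7% of all genes were called. Larp1, which binds the caps of ribosomal protein messenger RNAs, had 4439 to 6378 normalized counts in bigenic mice and 2849 to 3279 in controls, a log2(fold change) of 0.73 ± 0.11. Its relatives Larp4b and Larp4 rose by 0.38 ± 0.07 and 0.44 ± 0.08. Elavl4, the neuronal HuD that stabilizes AU-rich messenger RNAs, fell from 3578 to 4159 in controls to between 1566 and 2495 in bigenic mice (-0.84 ± 0.14). Cirbp, a cold-inducible RNA-binding protein, was at -0.62 ± 0.11 and Fam120a at -0.37 ± 0.09. These 6 genes were picked for small adjusted p, and in each the groups did not overlap. Over the whole list the groups did not overlap in 15 of 43 genes tested, against 39.0% of all genes.

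Regulators of granule assembly and clearance gave 9 higher and 2 lower of 27 tested of 29 (40.7%, against 35.9% of all genes), with a median of 0.17. Usp5, a deubiquitinase of free ubiquitin chains, rose by 0.67 ± 0.11, and Parp1, the main poly(ADP-ribose) polymerase, by 0.53 ± 0.11. The kinase CK2 was split, as its regulatory subunit Csnk2b rose by 0.36 ± 0.08 and its catalytic subunit Csnk2a1 was at -0.40 ± 0.09. The autophagy kinase Ulk2 was at -0.63 ± 0.14, with 1663 to 2687 normalized counts in bigenic mice and 3294 to 3666 in controls.

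The eIF2α kinases, phosphatase subunits and eIF2B, with Atf4, gave 4 higher and 0 lower of 14 tested of 15 (28.6%), with a median of 0.18. Of all genes 35.9% were called, 20.5% higher and 15.4% lower, so the share in this list was below that of all genes. At an unadjusted p below 0.05 limma had 6 higher and 0 lower, and voom also called 0 lower. There was 1 called lower without bg254 (beside 3 higher) and with array weights (beside 7 higher). In these settings 33.4% and 61.0% of all genes were called. Atf4, the transcription factor translated when eIF2α is phosphorylated, had 10199, 11470, 6822 and 7318 normalized counts in bigenic mice and 3315, 3207, 3331 and 4049 in controls. No bigenic value was near a control value, and the log2(fold change) of 1.34 ± 0.16 (2.53-fold, adjusted p = 0.000321) was larger than that of any stress granule member. The kinases Eif2ak3, which senses stress of the endoplasmic reticulum, and Eif2ak1, the heme-regulated kinase, rose by 0.46 ± 0.09 and 0.48 ± 0.10. Messenger RNA levels do not give the phosphorylation of eIF2α.

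P-bodies are neighbouring granules in which decapping and decay factors gather. Of 26 genes, 4 rose and 3 fell (26.9%, against 35.9% of all genes), with a median of 0.07. Leaving out nt250 or nt255 left 3 higher and 1 lower, where 25.2% and 25.1% of all genes were called. Edc3, a decapping enhancer, had 1086 to 1200 normalized counts in bigenic mice and 605 to 729 in controls (0.78 ± 0.08), and Patl1, which bridges decapping and deadenylation, had 806 to 1065 and 462 to 537 (0.87 ± 0.11). Tnrc6b, a microRNA silencing scaffold, rose by 0.40 ± 0.09, while Lsm14b (-0.35 ± 0.07), the Argonaute gene Eif2c1 (-0.25 ± 0.07) and the deadenylase gene Pan2 (-0.30 ± 0.09) fell. The call of Eif2c1 was lost without nt250 or nt255, and that of Pan2 without bg254, nt250, nt255 or nt278.

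Partners of FMRP, the Fmr1 product, gave 0 higher and 2 lower of 9 (22.2%, against 35.9% of all genes), with a median of 0.09. At an unadjusted p below 0.05 limma had 1 higher, and voom called 0 higher. They were Ncbp1, a cap-binding subunit (-0.48 ± 0.09), and Cyfip2, of the actin-regulating WAVE complex (-0.37 ± 0.08), whose call was lost after quantile normalization (adjusted p = 0.0575). Calls of higher genes appeared in other settings, with 2 without bg277, 1 without nt278, and 3 each with array weights and with the GC and length trend removed. In these settings, in that order, 45.5%, 32.2%, 61.0% and 38.6% of all genes were called. Nufip2 and Tdrd3 stood both here and among the other stress granule RNA-binding proteins. Of 18 tested of 20 well known FMRP-bound messenger RNAs, 5 rose and 4 fell (50.0%, against 35.9% of all genes), with a median of 0.03. Without nt250 the total fell from 9 to 5, where the share of all genes called fell to 25.2%. Dlgap3, a postsynaptic scaffold, had 6150 to 8947 normalized counts in bigenic mice and 3543 to 4294 in controls (0.85 ± 0.12), and Mtor rose by 0.30 ± 0.07. Kcnc1, a potassium channel, was at 0.29 ± 0.07, but at 0.12 and not called with the GC and length trend removed (adjusted p = 0.305), and its call was lost without nt250 (0.0504). Camk2a, a kinase of excitatory synapses, had 22112 to 30548 in bigenic mice and 44895 to 49794 in controls (-0.88 ± 0.10), and Kcnd2 and Psd3 were at -0.52 ± 0.08 and -0.43 ± 0.07. Camk2a is also a marker of excitatory neurons.

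**Figure D5:**
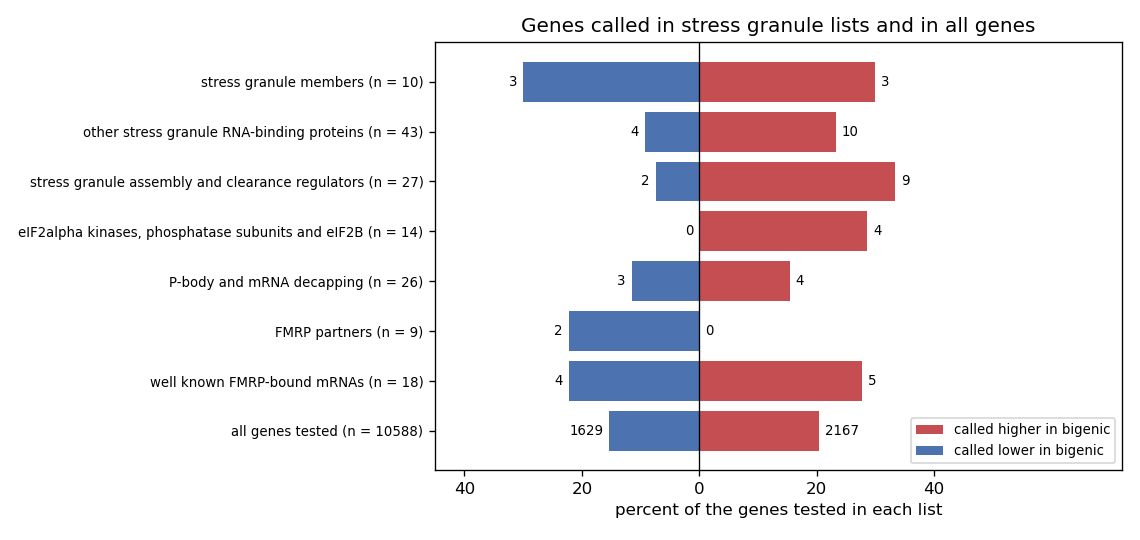
Percent of the genes tested (x axis) that were called higher (red, to the right) or lower (blue, to the left) in bigenic cortex for the stress granule members, 6 related lists and all genes, with the number of genes beside each bar. The members had 3 genes on each side, and the eIF2α list had 4 genes higher and 0 lower. Of all genes, 20.5% were called higher and 15.4% lower.

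Genes whose pattern over the 8 mice was most like that of the 2 members with the smallest adjusted p were found by Pearson correlation of log2 values over the 8 mice, as a description that includes the difference between groups. For Fxr2 these were Ccdc92 and Csnk1d (r = 0.998 for each), which had 4837 and 4465 normalized counts in bg277, the highest of all mice, as for Fxr2. For Tia1 they were B3gat2 (r = 0.993) and Ssbp2 (r = 0.991), both lowest in bg277.

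In bulk tissue, fewer cells of a type and less RNA per cell cannot be told apart. The summed normalized counts of 8 microglial markers tested of 9 were 4261 to 5251 in bigenic mice and 5500 to 6412 in controls. Of these 8, 0 were higher and 5 were called lower, where 15.4% of all genes were called lower and 20.5% higher. Called higher and lower were 1 and 4 of 8 general neuron, 1 and 2 of 6 excitatory, and 0 and 2 of 6 inhibitory neuron markers. The counts were 0 and 4 of 9 astrocyte, 1 and 0 of 8 oligodendrocyte, and 0 and 1 of 6 endothelial markers. The 6 excitatory neuron markers summed to 42674 to 61503 against 71721 to 78968, and the 9 astrocyte markers to 124227 to 143709 against 151259 to 163002. Sums over 8 of 9 general neuron markers (111985 to 160515 against 135503 to 153294) and 8 oligodendrocyte markers (63759 to 82958 against 62660 to 79188) overlapped between groups, and those of 6 endothelial markers did too (3868 to 4301 against 4011 to 5048). The 6 inhibitory neuron markers summed to 14445 to 15093 against 15934 to 17596. Choroid plexus markers went the other way, with sums over the 3 tested of 9 (Ttr, Kl and Clic6) of 8207 to 19208 against 336 to 1168. The controls had at most 99 normalized counts of Kl and 46 of Clic6, so that both passed the filter only through the bigenic mice and their calls carry no weight, whereas Ttr had 7741 to 18520 against 236 to 1023. No marker tested was at 0 in any mouse. The part of these shifts in the member differences was not tested.

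At full length, reads within single exons could be told apart between paralogues by exact sequence. Windows across exon junctions, and matches with mismatches, which the authors' mapping allowed, were not examined. Windows of 50 bases, the read length, occurred once in the genome for between 90.7% (G3bp1) and 100% (Atxn2) of the annotated exon windows of the members, and 0 windows were shared between paralogues.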

How the data were processed

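RNA from right cortex passed a RIN filter per the labels, was poly(A)+ selected and was sequenced as single-end reads of 50 bases. Per the methods and processing notes, the authors trimmed reads with cutadapt, mapped them to mm9 with Bowtie 0.12.7, kept reads with a single mapping, used bedtools for counts per exon and summed these to genes. The deposited table holds a signal per transcript and mouse, called normalized counts here. These are whole numbers, but gaps or repeats recur among them at even spacing, the mark of read counts that were scaled mouse by mouse and then rounded. What a read is worth was estimated from that spacing. Reads can be restored only where a read is worth more than 1, in 3 of 8 columns, so count tests were not run. The authors' DESeq2 table holds their fold changes and p-values, which were not used. It served for gene symbols.

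The columns name the group but not the labelled replicate. Rows reaching 10 RPM (of a column's total) in any mouse were kept (10588), transformed as log2(value + 1) and compared with limma 3.58.1 (trended eBayes, R 4.3.3) and Benjamini-Hochberg adjustment over all rows. The fit was first tested on simulated data. Positions, lengths, GC content (known for 96.4% of rows tested) and sequence came from GENCODE M1 and NCBIM37. Python 3.11.15 was used for all other steps.

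The members and lists were chosen with earlier results of these data known, so no list was tested. From each list, the 3 called genes of smallest adjusted p in each direction are named, and for the 2 members of smallest adjusted p the 2 most correlated genes. List members not tested here included Zc3hav1, Mov10, Zfand1, Hspb1, Eif2s3x and Map1b. Alternatives were pseudocounts of 10 and 0.1, no filter, a filter in every mouse, a common total, quantile normalization, limma's array weights, voom on approximate reads, a GC and length trend removed per mouse, an adjusted p below 0.01, TG runs of 4 units, and each mouse left out in turn. Mice are separate animals, and p-values measure the spread between them.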

Additional observations from a re-analysis of the deposited data

Results flagged for a closer look

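Within a group of 4 mice, a highest or lowest value was marked when its gap to the next mouse took up most of the group's range (Dixon's test at 95%). Over the members and the other named genes 8 of 78 groups were marked, where chance marks about 1 in 20. Mouse bg277 was marked for Fxr2 (5255 normalized counts), Caprin1 (6316) and Ubap2l (2862), each above the other bigenic mice. Mouse nt278 was marked among controls for Fxr2 (2093), Parp1 (2068) and Atf4 (4049), each towards the bigenic values. Mouse nt242 was marked for G3bp2 (10134) and nt255 for Csnk2a1 (1772), both highest among controls. The mice bg277 and nt278 also lay at the edges of their groups on the first principal component, and bg277 had the fewest reads, 10.63 M. Whether depth accounts for these values was not tested.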

How the results depend on the processing

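No paired analysis was possible because the columns carry no replicate numbers that match the labels. No member or named gene changed direction under the alternatives run. The ratios were run only with other pseudocounts, each mouse left out and, chosen after seeing the data, quantile normalization and the GC and length trend removed, and kept their direction there. With the trend removed Tia1 to Tial1 was -0.10 in place of -0.05, and Fxr1 to Fxr2 -0.35 in place of -0.54. The counts called moved by over 1.5 times as follows. With array weights (weight of bg277, 0.0843) the counts were 6455 for all genes, 25 for other stress granule RNA-binding proteins, 20 for regulators, 8 for the eIF2α list, 15 for P-bodies, 5 for FMRP partners and 14 for FMRP-bound messenger RNAs. At an adjusted p below 0.01 they were 2057 for all genes, 2 for the members (Tia1 and Fxr2), 9, 6, 4 for P-bodies and 4 for FMRP-bound messenger RNAs. FMRP partners gave 1 after quantile normalization and 5 with the GC and length trend removed, where 36.4% and 38.6% of all genes were called. With 4 TG units, 6 members had exonic runs in place of 1. Leaving out each mouse in turn gave 2654 to 4817 calls for all genes, 2 to 7 for the members, 11 to 19 for other RNA-binding proteins, 8 to 15 for regulators, 3 to 6 for the eIF2α list, 4 to 8 for P-bodies, 2 to 4 for FMRP partners and 5 to 11 for FMRP-bound messenger RNAs. The member count was 3 without nt242, 2 without nt250 and 3 without nt255, P-bodies gave 4 without nt250 or nt255, and FMRP-bound messenger RNAs 5 without nt250. These fits have fewer mice, and Fxr2 and Tia1 were called in each. With 4 mice a group, a difference smaller than the spread of the mice, such as that of G3bp2, may be missed.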
